A study of Homo sapiens with 33 samples.

Results

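DUSP4, DUSP5, DUSP6, SPRY2, SPRY4, SPRED1, SPRED2, ETV4, ETV5 and PHLDA1 are genes whose transcripts are widely used as readouts of ERK activity, and their levels were examined over all 11 conditions of this series. The 10 genes are 10 of 22465 genes measured. Each was represented by the probe set annotated to that symbol alone, and where several exist the one with the highest mean over all 33 arrays would have been taken, but each of the 10 had 1. The genes were chosen by function, with earlier results of these data known. All 33 arrays were Affymetrix Human Transcriptome Array 2.0 arrays, with 3 arrays in each condition.

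RT112 (24 arrays) and RT4 (9 arrays) are urothelial carcinoma lines that carry an FGFR3-TACC3 fusion, and PD173074 is a small-molecule inhibitor of the FGFR family. The conditions were RT112 cells exposed to PD173074 for 24 h, RT112 derivatives R1, R2 and R3 maintained in drug, the same derivatives after 4 to 6 passages without drug, untreated parental RT112, RT4 R1 in drug, RT4 R1 out of drug and untreated parental RT4. RT112 R1, RT112 R3 and RT4 R1 were maintained at 1 µM and RT112 R2 at 2 µM, so dose and derivative cannot be told apart for R2. The dose of the 24 h exposure on the arrays was not stated in the sources used here, and parental RT112 exposed for 24 h for immunoblots received 1 µM. The derivatives are selected populations of cells and not single clones, and the study describes RT112 R3 as having gained an activating HRAS mutation, present in only some of its cells. RT4 had no 24 h condition.

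Signalling from an FGF receptor runs through the RAS proteins and the RAF and MEK kinases to ERK, which enters the nucleus and raises the transcription of a small set of early genes. Many of these genes encode brakes on the same cascade. DUSP4, DUSP5 and DUSP6 are phosphatases that remove activating phosphates from ERK, with DUSP6 mainly cytoplasmic and DUSP4 and DUSP5 nuclear. SPRY2 and SPRY4 (Sprouty) and SPRED1 and SPRED2 act upstream of ERK, and SPRED1 brings the RAS inactivator NF1 to the membrane. ETV4 and ETV5 are ETS transcription factors of the PEA3 group, which carry the response on to further genes. PHLDA1 is a pleckstrin homology-like protein that is induced by growth factor signalling. CIC is a repressor that binds octamers such as TGAATGAA near ETV4, ETV5, DUSP6, SPRY4 and other genes and that ERK signalling removes.

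Promoter sequences were available for 6 of the 10 genes (DUSP6, SPRY2, SPRY4, SPRED1, SPRED2 and PHLDA1; RefSeq, GRCh38.p14), each 300 bases long, with 250 before and 50 after an annotated start. They are shown for DUSP6 and PHLDA1, the genes with the largest falls in RT112 at 24 h and in R1 and R2 in drug, for SPRY4, which was lowest relative to parental cells after withdrawal in RT4 R1 and had the smallest adjusted p in R2 and R3, and for the SPRED2 start that held the only other match. The motifs searched on both strands were the CIC octamers TGAATGAA, TGAATGGA, TCAATGAA and TCAATGGA, the ETS core CCGGAAG, the AP-1 site TGAGTCA, the CRE TGACGTCA and the CArG box to which serum response factor binds (3 of its sequences). Capitals mark matches.
DUSP6 (chr12:89352452-89352751, minus strand): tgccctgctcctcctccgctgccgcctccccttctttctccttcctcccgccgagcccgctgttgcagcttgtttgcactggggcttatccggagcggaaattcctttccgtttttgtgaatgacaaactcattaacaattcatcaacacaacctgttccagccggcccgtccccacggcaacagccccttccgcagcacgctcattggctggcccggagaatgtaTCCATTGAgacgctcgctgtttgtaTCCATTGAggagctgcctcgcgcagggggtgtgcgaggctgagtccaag
PHLDA1 (chr12:76031727-76032026, minus strand): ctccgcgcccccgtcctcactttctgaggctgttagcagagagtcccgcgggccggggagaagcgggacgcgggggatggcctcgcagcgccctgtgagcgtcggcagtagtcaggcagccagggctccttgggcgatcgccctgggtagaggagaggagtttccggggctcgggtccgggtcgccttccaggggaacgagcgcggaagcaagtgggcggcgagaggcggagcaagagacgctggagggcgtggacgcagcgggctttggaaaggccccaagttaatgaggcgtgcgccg
SPRY4 (chr5:142324198-142324497, minus strand): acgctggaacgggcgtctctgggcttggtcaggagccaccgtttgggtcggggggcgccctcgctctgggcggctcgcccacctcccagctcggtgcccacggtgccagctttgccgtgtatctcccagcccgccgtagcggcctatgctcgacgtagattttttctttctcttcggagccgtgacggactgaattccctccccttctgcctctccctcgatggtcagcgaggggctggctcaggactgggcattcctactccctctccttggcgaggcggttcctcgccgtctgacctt
SPRED2 (chr2:65366729-65367028, minus strand): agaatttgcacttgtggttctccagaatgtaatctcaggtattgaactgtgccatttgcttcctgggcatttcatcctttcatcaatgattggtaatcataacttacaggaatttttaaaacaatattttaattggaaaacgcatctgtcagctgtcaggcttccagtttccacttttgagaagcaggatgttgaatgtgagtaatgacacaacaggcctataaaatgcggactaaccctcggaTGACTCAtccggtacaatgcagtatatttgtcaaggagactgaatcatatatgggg

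The DUSP6 promoter held the CIC octamer 2 times, both as TCCATTGA, which reads TCAATGGA on the other strand. The first began 24 bases before the start (chr12:89352518-89352525) and the second at base 2 counted from it (chr12:89352493-89352500). Of the 35116 promoters in the table, 3.77% held one of these octamers. The SPRED2 promoter shown held 1 AP-1 site, 6 bases before that start (chr2:65366778-65366784), as did 4.95% of promoters. The shares of promoters with the ETS core, the CRE and a CArG box were 10.3%, 1.85% and 0.0883%, and none of the 9 promoters of the 6 genes held one. A match is a run of letters and not a measured site.

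The values are log2 signals, so a difference of 1 is a doubling on the deposited scale. Calls were made with limma at an adjusted p under 0.01 over all genes. The labels do not say whether the 3 arrays of a condition came from separate cultures, so p-values measure the spread between these arrays, which may be technical. All comparisons with parental cells of a line share the same 3 untreated parental arrays. Array medians lay between 4.86 and 5.08. The arrays of a condition correlated at 0.972 or more over all genes, and the lowest values were for RT112 R1 in drug (0.972), untreated RT4 (0.981) and RT112 R3 in drug (0.985). Untreated RT4 replicate 1 was the lowest of its 3 arrays for all 10 genes, RT112 R3 in drug replicate 3 was the lowest for 9 of 10, and R3 in drug replicate 1 was the highest for 9 of 10. RT112 R1 out of drug replicate 2 was also the highest of its 3 arrays for 9 of 10. Counts of called genes among the 10 are given with and without these arrays. Means of conditions and results for other genes are given with all arrays only. Urothelial markers (15 genes) averaged 10.91 to 12.57 per array, whereas fibroblast (8), immune (6) and endothelial (4) markers averaged 4.59 to 6.16, 4.89 to 5.91 and 4.35 to 4.97. The urothelial mean hides mixed members. Condition means of UPK1A ran from 8.96 to 18.23, and those of KRT20 reached at most 5.47. Against parental RT112, 3 of the 15 were called higher and 3 lower at 24 h (11.4% and 13.1% of all genes). In R2 in drug 3 were higher and 3 lower (9.08% and 8.91%), and in R1 in drug 1 was lower (6.52%).

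Averaged over the 10 genes, the log2 signal ordered the RT112 conditions as R2 in drug (5.91 ± 0.10, SD, n = 3), 24 h PD173074 (5.94 ± 0.02), R1 in drug (6.17 ± 0.29), R3 in drug (7.64 ± 0.41), R2 out of drug (8.02 ± 0.19), R1 out of drug (8.06 ± 0.34), R3 out of drug (8.21 ± 0.16) and untreated parental cells (8.60 ± 0.21). The arrays of R2 in drug, 24 h and R1 in drug overlapped in this order, as did those of R3 in drug and the 3 derivatives out of drug. R1 in drug (highest array 6.43) did not overlap R3 in drug (lowest array 7.22), and R3 out of drug (highest array 8.37) did not overlap parental cells (lowest array 8.38). In RT4, R1 averaged 6.93 ± 0.19 in drug and 8.32 ± 0.02 out of drug, and untreated parental RT4 averaged 8.53 ± 0.43. Untreated RT4 replicate 1 (8.027) lay below the R1 out-of-drug arrays (8.297 to 8.344), and replicates 2 and 3 (8.789 and 8.765) lay above them.

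**Figure D1:**
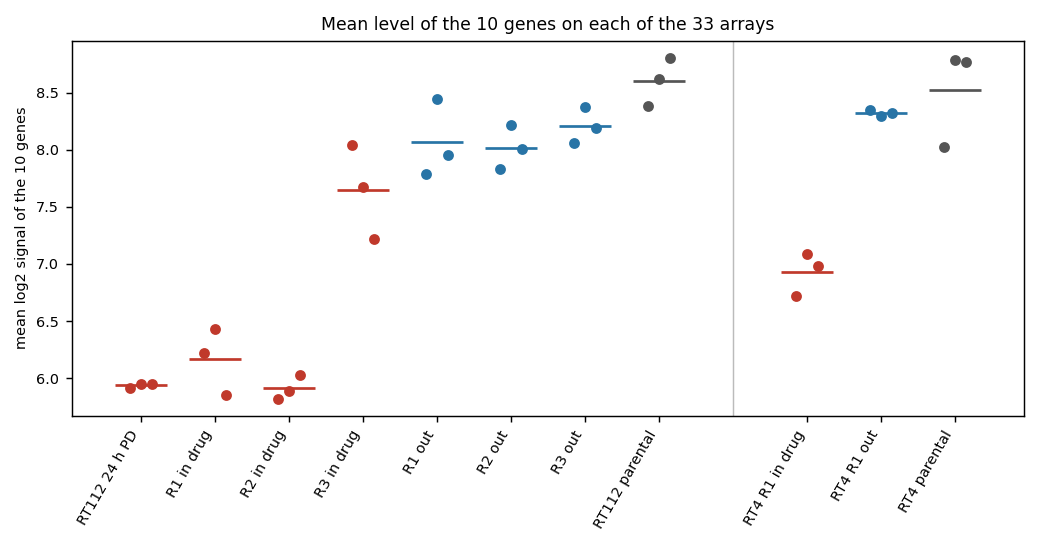
Mean log2 signal of the 10 genes on each of the 33 arrays (points; y axis) by condition (x axis), with the mean of 3 arrays as a line; red, in PD173074, blue, out of drug, grey, untreated parental. The 24 h, R1 and R2 arrays in drug lie between 5.82 and 6.43, R3 in drug between 7.22 and 8.04, and untreated RT112 between 8.38 and 8.80.

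Exposure of RT112 to PD173074 for 24 h lowered all 10 genes (13.1% of all genes were called lower). The median difference of the 10 was -1.82, against 0.01 over all genes. The arrays of treated and untreated cells did not overlap for any of the 10, as for 49.4% of all genes. DUSP6 read 5.88, 5.96 and 5.89 after 24 h, against 11.52, 11.92 and 12.44 in untreated cells, a difference of -6.05 ± 0.21 (SE, adjusted p = 3.0e-05) or 66.3-fold. PHLDA1 read 6.68, 7.22 and 7.05 after 24 h, against 12.63, 12.52 and 12.55 untreated (-5.58 ± 0.14, adjusted p = 9.3e-06). These were the deepest falls, and DUSP6 lay at percentile 51.2 of the levels of all genes after 24 h, against 95.3 in untreated cells. ETV4 read 5.47, 5.69 and 5.39 after 24 h, against 8.79, 9.21 and 9.78 untreated (-3.74 ± 0.24).

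The remaining 7 genes differed by -1.25 to -2.22 on the log2 scale. Among the phosphatases, DUSP4 read 5.84, 5.92 and 5.99 after 24 h, against 7.67, 8.40 and 8.34 untreated (-2.22 ± 0.19). DUSP5 read 7.17, 7.0 and 6.92 after 24 h, against 8.12, 8.47 and 8.62 untreated (-1.37 ± 0.14). DUSP5 was the only gene of the 10 that lost its call in any alternative treatment of this comparison. Among the Sprouty and SPRED genes, SPRED1 fell by 1.97, SPRED2 by 1.67, SPRY4 by 1.48 and SPRY2 by 1.29. ETV5 read 4.93, 4.96 and 5.02 after 24 h, against 6.14, 6.15 and 6.37 untreated, and fell by 1.25. SPRY4, ETV5, ETV4 and SPRED2 averaged 4.58, 4.97, 5.52 and 5.80 after 24 h, and DUSP6 and DUSP4 5.91 and 5.92, close to or below the median over genes on these arrays (5.80 to 5.81). Signals were not tested against background, so the changes of these 6 genes, DUSP6 included, may be larger than the values given. All 10 genes remained called with any 1 of the 6 arrays left out.

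**Figure D2:**
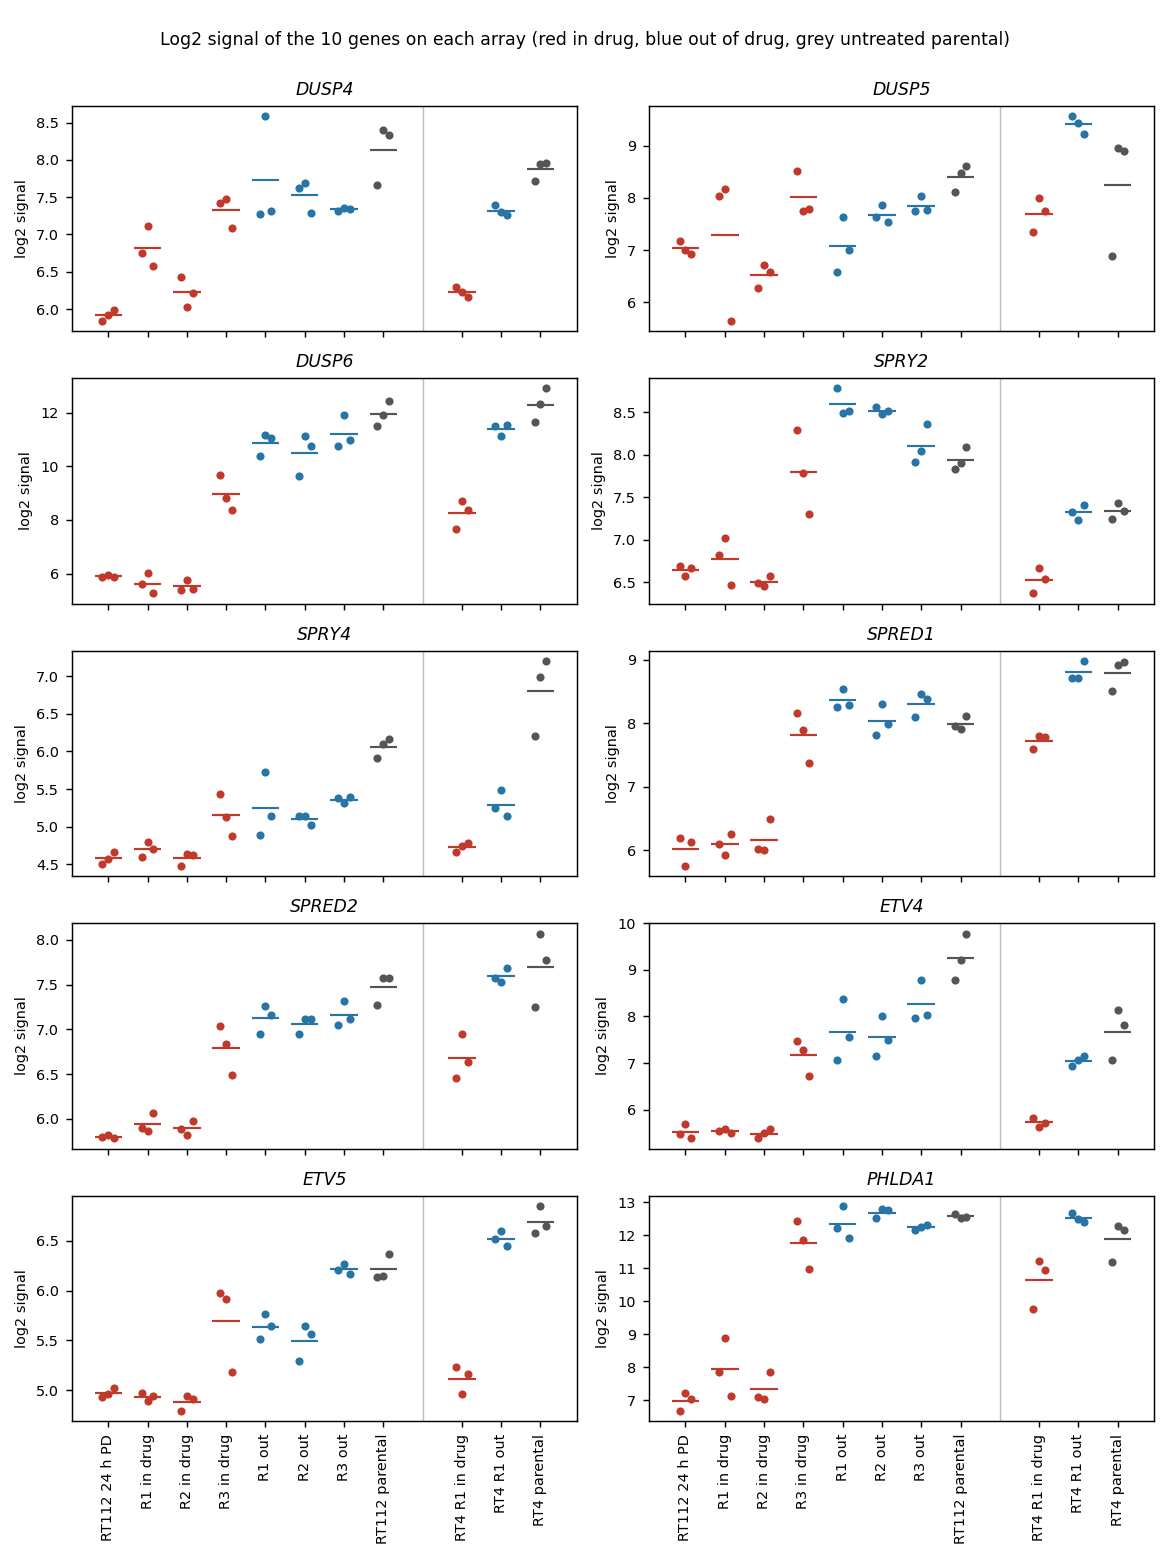
Log2 signal (y axis, separate scale per gene) of each gene on each array by condition (x axis); points are arrays, lines are means of 3, red is in PD173074, blue out of drug and grey untreated parental. DUSP6 in RT112 lies between 5.26 and 6.01 at 24 h and in R1 and R2 in drug, between 8.37 and 9.68 in R3 in drug, and between 11.52 and 12.44 in untreated cells.

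RT112 R2 maintained in drug had all 10 genes lower than parental cells (8.91% of all genes were called lower), with a median difference of -1.86 against -0.04 over all genes, and all 10 calls held with any 1 array left out. RT112 R1 in drug had 8 of 10 lower (6.52% of all genes), with a median of -1.45 against -0.01. DUSP6 read 5.60, 6.01 and 5.26 in R1 and 5.38, 5.78 and 5.43 in R2, against 11.52, 11.92 and 12.44 in parental cells, with differences of -6.34 ± 0.29 and -6.43 ± 0.23. PHLDA1 read 7.86, 8.90 and 7.13 in R1 and 7.10, 7.05 and 7.86 in R2, with differences of -4.60 ± 0.43 and -5.23 ± 0.21. ETV4 (5.38 to 5.59 over the 6 arrays), ETV5 (4.79 to 4.97) and SPRY4 (4.48 to 4.80) were low on every R1 and R2 array. The study's immunoblots, a measure of protein, showed less phosphorylated ERK in RT112 after 24 h of drug. For R1, R2 and R3 the study reports about the parental amount, with and without drug. How these transcripts relate to phosphorylated ERK was not tested here.

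The 2 genes not called in R1 were nuclear ERK phosphatases. DUSP4 read 6.75, 7.11 and 6.58 in R1 in drug, against 7.67, 8.40 and 8.34 in parental cells, a difference of -1.32 ± 0.24 (adjusted p = 0.0116) with no overlap. DUSP5 read 8.03, 8.17 and 5.64 in R1 in drug, against 8.12, 8.47 and 8.62 in parental cells (-1.12 ± 0.69, adjusted p = 0.314). The single low array decided the size of this difference, which was -0.30 ± 0.16 (adjusted p = 0.226) without R1 in drug replicate 3. In R2 in drug DUSP5 read 6.27, 6.71 and 6.58 and was lower by 1.88 on the log2 scale (-1.88 ± 0.16). The R1 calls of SPRY2 (-1.17 ± 0.16) and PHLDA1 also depended on single arrays. Leaving out parental replicate 2 or 3 ended both (PHLDA1 adjusted p = 0.0102 and 0.0112), leaving out parental replicate 1 (adjusted p = 0.0187) or R1 in drug replicate 1 (0.0212) ended that of SPRY2, and leaving out parental replicate 1 brought DUSP4 past the threshold (-1.56 ± 0.17, adjusted p = 0.00902).

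Fibroblast markers, a list with 1 of 8 genes above a log2 signal of 7 in every RT112 condition, had a higher list mean in the same cells, with array means of 6.01 to 6.16 in R1 in drug, 5.94 to 6.08 in R2 in drug and 5.57 to 5.63 at 24 h, against 5.23 to 5.29 in parental cells. In R1 2 of these 8 genes, in R2 3 and at 24 h 2 were called higher (5.19%, 9.08% and 11.4% of all genes), and the medians of the list's differences were 0.26, 0.18 and 0.09. LUM (3.73 ± 0.21, 3.16 ± 0.15 and 2.25 ± 0.10) and DCN (1.78 ± 0.16, 1.78 ± 0.12 and 0.29 ± 0.06), genes of matrix proteoglycans, were called in all 3, with FAP in R2 (0.74 ± 0.11). Immune markers averaged 5.64 to 5.91 at 24 h, against 5.23 to 5.30 in parental cells, with CD68 (0.97 ± 0.12) and LYZ (1.70 ± 0.33) of 6 called higher, and of 4 endothelial markers CDH5 was called higher at 24 h (0.80 ± 0.12). In R1 none of these immune and endothelial markers was called, and in R2 CD68 was lower (-2.12 ± 0.15). The defining immune gene PTPRC lay between 4.28 and 4.36 in every condition. The part of these markers in the falls of the ERK genes was not tested, and in cell populations a smaller share of expressing cells and less RNA per cell cannot be told apart.

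Long-term culture in drug was compared with 24 h to ask whether the loss had eased. By limma none of the 10 genes was called different from the level at 24 h in R1 or R2 in drug. Of all genes, 7.08% were called either way in R1 and 11.3% in R2. The methods' t-test with Benjamini-Hochberg adjustment also called none of the 10, with 121 of all genes called in R1 and 196 in R2. At an unadjusted p under 0.05, 1 of the 10 genes differed in R1 and 3 in R2 by limma, against 31.5% and 33.2% of all genes. The 95% intervals of the differences were narrow for ETV4 (R1 -0.21 to 0.26, R2 -0.28 to 0.22) and ETV5 (R1 -0.20 to 0.13, R2 -0.28 to 0.10), and wide for DUSP5 in R1 (-1.41 to 1.91). ETV4 averaged 5.52 at 24 h, 5.54 in R1 and 5.49 in R2, and ETV5 4.97, 4.93 and 4.88. These levels lay below the medians over genes of the arrays (5.75 to 5.83). Signals were not tested against background, so differences of ETV4 and ETV5 may be larger than these intervals show. DUSP4 was 0.90 ± 0.15 higher in R1 in drug than at 24 h (adjusted p = 0.0112, no overlap), and limma called it higher once genes under the 30th percentile were dropped (adjusted p = 0.00902), after quantile normalization again (0.00816) and after centring on array medians (0.00863). Without R1 in drug replicate 3, DUSP4 (1.01 ± 0.13, adjusted p = 0.00609) and DUSP5 (1.07 ± 0.11, adjusted p = 0.00321) were called higher in R1 in drug than at 24 h.

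RT112 R3 in drug stood apart from R1 and R2. Compared with 24 h, 6 of 10 genes were higher in R3 in drug (5.33% of all genes were called higher) and the arrays of none of the 10 overlapped (39.8% of all genes did not overlap). PHLDA1 read 12.44, 11.84 and 10.97 in R3 in drug, against 6.68, 7.22 and 7.05 at 24 h, a difference of 4.77 ± 0.37 (adjusted p = 0.00198) or 27.2-fold. DUSP6 read 9.68, 8.80 and 8.37 in R3 in drug, against 5.88, 5.96 and 5.89 at 24 h (3.04 ± 0.31, adjusted p = 0.00284). SPRED1 (1.79 ± 0.22), ETV4 (1.65 ± 0.21), DUSP4 (1.41 ± 0.12) and SPRED2 (0.99 ± 0.14) were the other 4. The calls were sensitive to single arrays. No gene was called without any 1 of the 24 h arrays or without R3 in drug replicate 2, 3 were called without R3 in drug replicate 1, and 9 without R3 in drug replicate 3.

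Against untreated parental cells, DUSP6 alone was called lower in R3 in drug (1.05% of all genes were called lower). It read 9.68, 8.80 and 8.37 in R3 in drug, against 11.52, 11.92 and 12.44 in parental cells (-3.01 ± 0.38, adjusted p = 0.00928), between the levels at 24 h and in untreated cells. This call was lost without any 1 parental array (adjusted p = 0.0299, 0.0471 and 0.0488) or without R3 in drug replicate 2 (adjusted p = 0.0527). ETV4 read 7.48, 7.29 and 6.72 in R3 in drug, against 8.79, 9.21 and 9.78 in parental cells (-2.10 ± 0.30, adjusted p = 0.0127). SPRY4 differed by -0.91 ± 0.15 (adjusted p = 0.0201), DUSP4 by -0.81 ± 0.22 and SPRED2 by -0.68 ± 0.16, all without overlap between the groups. PHLDA1 (-0.82 ± 0.35) and ETV5 (-0.53 ± 0.22) also did not overlap, so 7 of 10 genes had no overlap, as had 32.3% of all genes. SPRY2 (-0.15, 95% interval -0.73 to 0.44) and SPRED1 (-0.18; -0.66 to 0.30) had means close to those of parental cells. The median difference of the 10 was -0.75, against 0.00 over all genes.

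**Figure D3:**
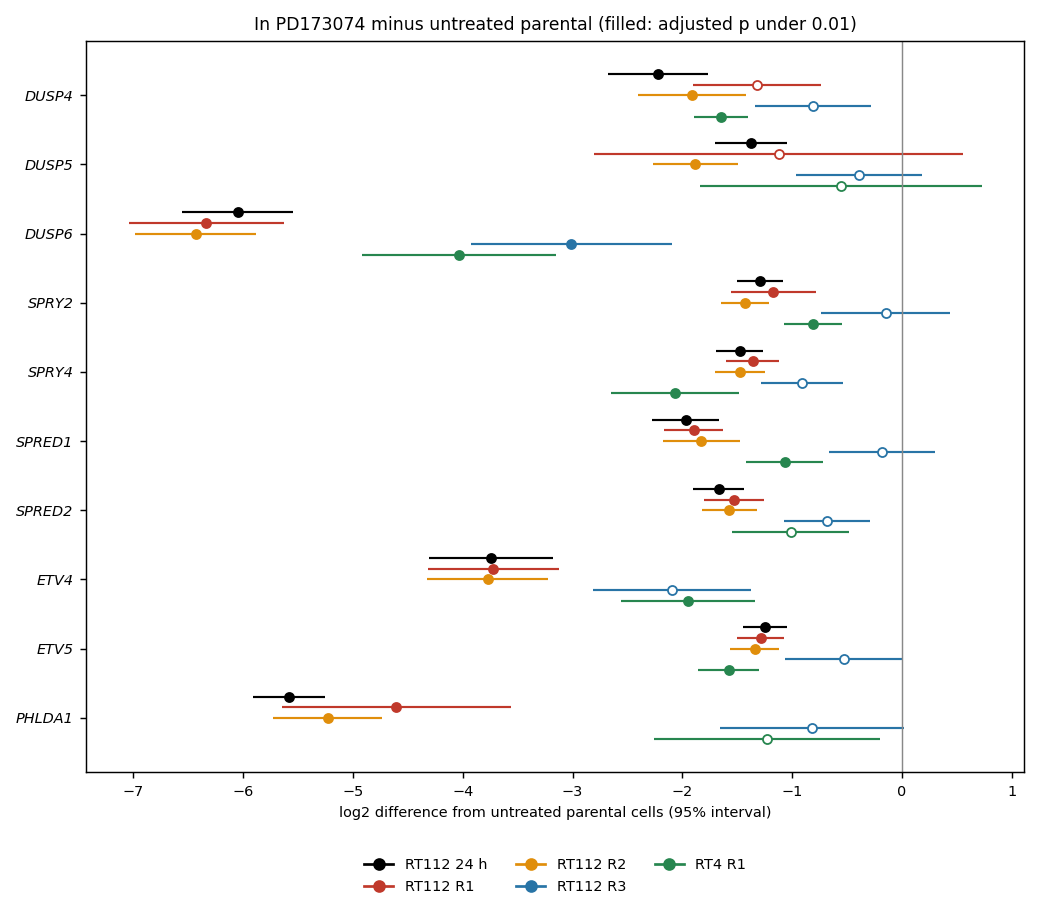
Log2 difference from untreated parental cells of the same line (x axis) for each gene (y axis) at 24 h and in each derivative in drug; bars are 95% intervals from limma and filled points have an adjusted p under 0.01. R3 lies nearer to 0 than R1 and R2 for each of the 10 genes, and DUSP6 is the one filled R3 point, at -3.01.

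Set directly against R3 in drug, R1 in drug had 3 of 10 genes lower (2.18% of all genes), DUSP6 (-3.33 ± 0.37), SPRED1 (-1.72 ± 0.21) and ETV4 (-1.62 ± 0.20). PHLDA1 read 7.86, 8.90 and 7.13 in R1, against 12.44, 11.84 and 10.97 in R3 (-3.79 ± 0.56, adjusted p = 0.0108), and was not called. R2 in drug had 5 of 10 lower than R3 in drug (1.02% of all genes), namely PHLDA1 (-4.41 ± 0.40), DUSP6 (-3.42 ± 0.33), ETV4 (-1.68 ± 0.20), SPRED1 (-1.65 ± 0.23) and DUSP4 (-1.10 ± 0.15). No array of R2 overlapped R3 for any of the 10, as for 32.0% of all genes. In both comparisons single arrays moved the counts. For R1 against R3, leaving out R1 replicate 1 or 2 or R3 replicate 1 or 2 left 0 called, leaving out R1 replicate 3 left 2, and leaving out R3 replicate 3 gave 4. For R2 against R3, leaving out R2 replicate 1 or 2 or R3 replicate 2 left 0, leaving out R2 replicate 3 or R3 replicate 1 left 2, and leaving out R3 replicate 3 gave 8.

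In and out of drug were then compared within each derivative. In R2 in drug all 10 were lower than in R2 out of drug (5.85% of all genes were called lower), and in R1 7 of 10 were lower in drug than out of it (2.97% of all genes). PHLDA1 read 7.10, 7.05 and 7.86 in R2 in drug, against 12.51, 12.78 and 12.76 out of drug (-5.35 ± 0.22), and 7.86, 8.90 and 7.13 in R1 in drug, against 12.21, 12.88 and 11.90 out of drug (-4.37 ± 0.47). DUSP6 read 5.38, 5.78 and 5.43 in R2 in drug, against 9.62, 11.14 and 10.77 out of drug (-4.98 ± 0.37). In R1 DUSP6 was lower in drug by 5.25 (-5.25 ± 0.27). SPRED1, SPRY2, ETV4, SPRED2 and ETV5 were the other genes called in both derivatives. The 3 not called in R1 were DUSP4 (-0.92 ± 0.37), SPRY4 (-0.55 ± 0.22) and DUSP5 (0.21 ± 0.70). SPRY4 lay at percentile 29 of the levels of all genes in R1 in drug and 42.3 out of drug. Without a test against background, its difference may be larger than given.

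These counts fell when single arrays were left out. In R1 the count was 2 without out-of-drug replicate 2 or 3 or in-drug replicate 1, 3 without out-of-drug replicate 1, 5 without in-drug replicate 2 and 7 without in-drug replicate 3. In R2 it was 2 without in-drug replicate 1, 5 without in-drug replicate 2 or out-of-drug replicate 3, 6 without out-of-drug replicate 2, and 8 without in-drug replicate 3 or out-of-drug replicate 1. The genes that lost their call kept their direction in each case.

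In R3 none of the 10 genes was called different in drug from out of drug, and none of the 22465 genes was (0%; smallest adjusted p over all genes 0.0203). At an unadjusted p under 0.05 limma gave 3 of the 10 and 1767 of all genes. The methods' t-test with Benjamini-Hochberg adjustment called none of the 10 and none of all genes. DUSP6 read 9.68, 8.80 and 8.37 in R3 in drug, against 10.77, 11.90 and 10.99 out of drug (-2.27 ± 0.41, 95% interval -3.27 to -1.27, adjusted p = 0.218). ETV4 differed by -1.10 (95% interval -1.78 to -0.43) and PHLDA1 by -0.50 (-1.33 to 0.33). DUSP4, SPRY4 and DUSP5 differed by -0.01, -0.21 and 0.17, each with overlapping arrays.

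**Figure D4:**
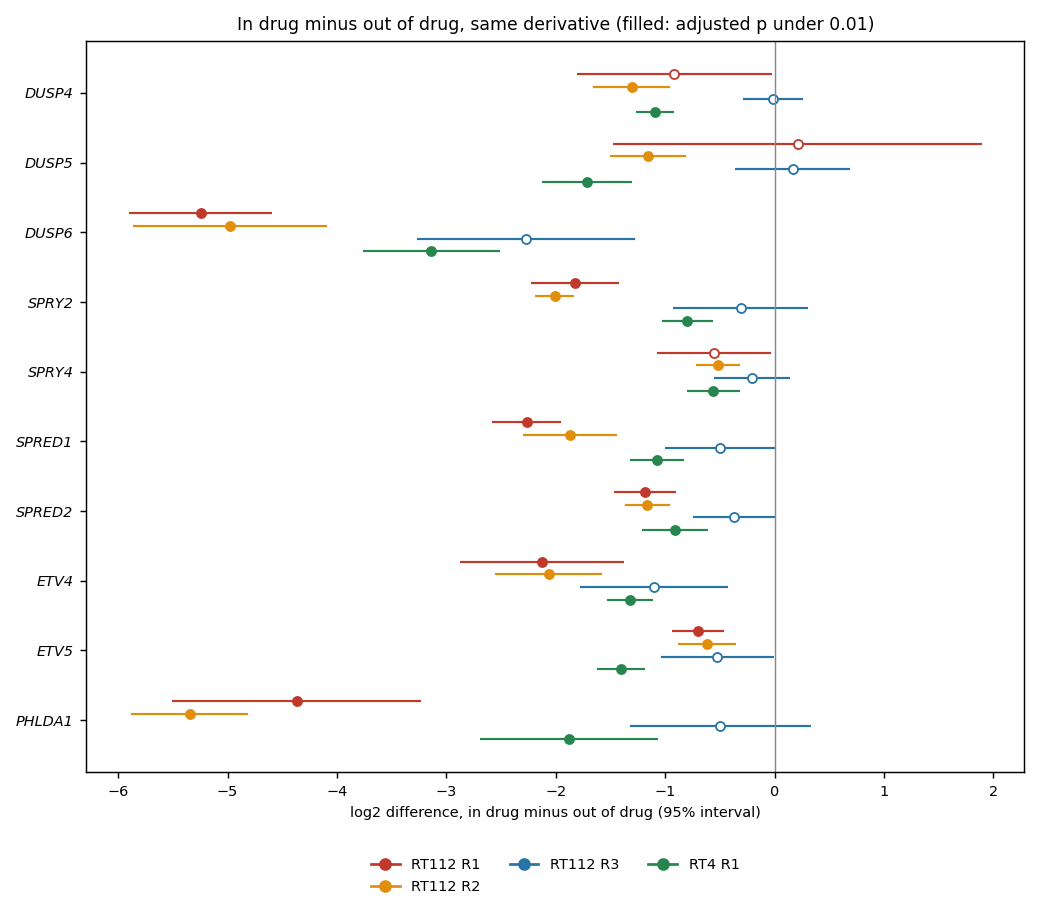
Log2 difference in drug minus out of drug within each derivative (x axis) for each gene (y axis); bars are 95% intervals from limma and filled points have an adjusted p under 0.01. PHLDA1 lies at -4.37 in R1 and -5.35 in R2, and at -0.50 in R3 and -1.88 in RT4 R1.

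The difference between the drug effects themselves was tested. That in R1 minus that in R3 was called for PHLDA1 (-3.87 ± 0.64, adjusted p = 0.00801) and SPRED1 (-1.77 ± 0.26, adjusted p = 0.00481), 2 of 10 (0.450% of all genes were called in this direction). That in R2 minus that in R3 was called for PHLDA1 (-4.85 ± 0.45, adjusted p = 9.3e-04) and DUSP4 (-1.29 ± 0.19, adjusted p = 0.00807), also 2 of 10 (0.200% of all genes). For DUSP6 the differences were -2.98 ± 0.54 (adjusted p = 0.0132) and -2.71 ± 0.61 (adjusted p = 0.0373). PHLDA1 stayed called for R2 against R3 with any 1 of the 12 arrays left out, whereas DUSP4 stayed called without R2 in drug replicate 3 or R3 in drug replicate 3 and lost its call in the other 10 omissions. For R1 against R3, both calls held without R1 in drug replicate 3 or R3 in drug replicate 3, 1 held without R1 in drug replicate 2 (PHLDA1) or R3 in drug replicate 1 (SPRED1), and neither in the other 8 omissions.

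Recovery out of drug was compared with untreated parental cells, gene by gene. In R1 none of the 10 was called (1.45% of all genes either way). At an unadjusted p under 0.05 limma gave 8 of 10 (22.6% of all genes). The methods' t-test, adjusted, gave none of the 10 and 3 of all genes. In R2, SPRY4 (-0.96 ± 0.09, adjusted p = 0.00157) and ETV5 (-0.72 ± 0.12, adjusted p = 0.00853) were lower (2.69% of all genes) and SPRY2 was higher (0.58 ± 0.08, adjusted p = 0.00635; 4.18% of all genes). In R3, SPRY4 alone was lower (-0.70 ± 0.09, adjusted p = 0.0052; 1.42% of all genes). SPRY4 read 5.14, 5.14 and 5.02 in R2 and 5.38, 5.31 and 5.39 in R3, against 5.91, 6.10 and 6.17 in parental cells. These means lay at percentiles 40.5, 44.3 and 53.5 of the levels of all genes. Signals were not tested against background, so the differences of SPRY4 may be larger than given. SPRY2 read 8.56, 8.48 and 8.52 in R2 and 8.78, 8.49 and 8.51 in R1 (0.65 ± 0.12, adjusted p = 0.0208), all above the parental values of 7.83, 7.90 and 8.09.

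ETV4 had means below parental cells in all 3 derivatives out of drug. It read 7.07, 8.37 and 7.55 in R1, 7.16, 8.0 and 7.49 in R2 and 7.97, 8.79 and 8.04 in R3, against 8.79, 9.21 and 9.78 in parental cells. The differences were -1.60 ± 0.36 in R1 (adjusted p = 0.0442), -1.71 ± 0.30 in R2 (adjusted p = 0.0112) and -0.99 ± 0.30 in R3 (adjusted p = 0.0734), so none was called. Limma called ETV4 lower in R2 once genes under the 30th percentile were dropped (adjusted p = 0.00788) and after quantile normalization again (0.0084). In 1 fit over all RT112 arrays, limma called it lower in R2 (adjusted p = 6.9e-04) and R1 (0.00262). No other setting with adjusted p called it in R1 or R2, and none in R3. ETV5 read 5.51, 5.76 and 5.64 in R1 and 6.21, 6.27 and 6.17 in R3, both without drug, against 6.14, 6.15 and 6.37 in parental cells. It differed by -0.58 ± 0.11 in R1 (adjusted p = 0.0224) and by 0.00 in R3 (95% interval -0.21 to 0.20). DUSP6 differed by -1.09 ± 0.28 in R1, -1.45 ± 0.41 in R2 and -0.74 ± 0.33 in R3. DUSP5 in R1 out of drug (6.57, 7.64 and 7.0) was below the parental arrays without passing the threshold (-1.33 ± 0.27, adjusted p = 0.0299). PHLDA1 was within 0.32 of its parental mean in each derivative out of drug.

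The calls out of drug rested on few arrays. In R2 no call remained without parental replicate 2 or 3, and 1 (SPRY4) without any other single array. In R3 the SPRY4 call was lost without any of 5 arrays (adjusted p = 0.0148 to 0.0283), and without parental replicate 1 both SPRY4 (adjusted p = 0.00964) and DUSP4 were called lower. Of the 19 pairs of conditions, this was the one in which all 3 pairs of equally numbered arrays correlated above 0.1 in their deviations, and with the replicate number as a block (a paired fit) SPRY4 was no longer called (-0.70 ± 0.08, adjusted p = 0.0116), leaving 0 of 10.

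**Figure D5:**
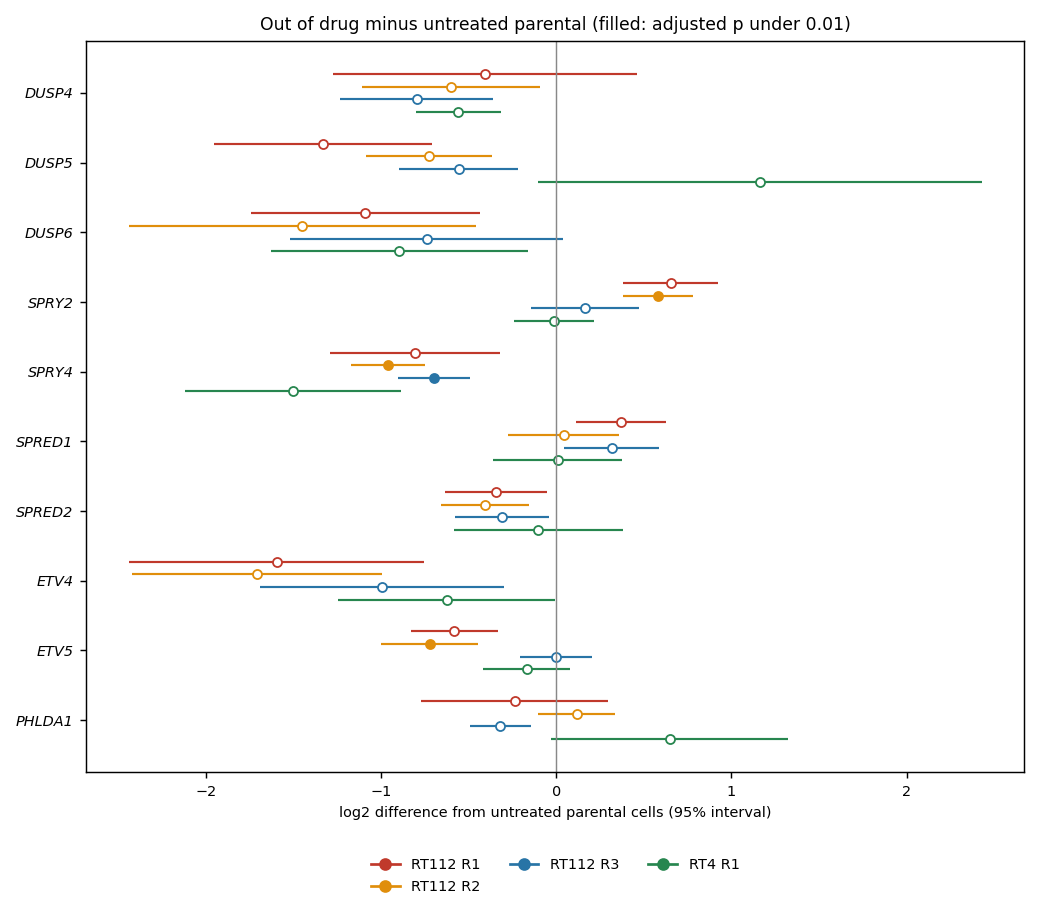
Log2 difference out of drug minus untreated parental cells of the same line (x axis) for each gene (y axis); bars are 95% intervals from limma and filled points have an adjusted p under 0.01. SPRY4 lies below 0 in all 4 derivatives, between -0.70 and -1.50, and SPRY2 lies above 0 in RT112 R1 and R2 at 0.65 and 0.58.

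In RT4, R1 in drug had 7 of 10 genes lower than untreated parental RT4 (3.33% of all genes were called lower), with a median of -1.40 against 0.03 over all genes. DUSP6 read 7.65, 8.72 and 8.38 in RT4 R1 in drug, against 11.64, 12.31 and 12.90 in parental RT4 (-4.03 ± 0.37, adjusted p = 0.0011). SPRY4 read 4.67, 4.74 and 4.79 in RT4 R1 in drug, against 6.20, 6.99 and 7.20 in parental RT4 (-2.06 ± 0.25). ETV4 (-1.95 ± 0.26), DUSP4 (-1.65 ± 0.10), ETV5 (-1.58 ± 0.12), SPRED1 (-1.07 ± 0.15) and SPRY2 (-0.81 ± 0.11) were the others. PHLDA1 read 9.77, 11.21 and 10.94 in RT4 R1 in drug, against 11.18, 12.28 and 12.15 in parental RT4 (-1.23 ± 0.43, adjusted p = 0.121), and the groups overlapped. With the replicate number as a block, limma called PHLDA1 lower (-1.23 ± 0.11, adjusted p = 0.0086), while SPRY2, SPRY4 and ETV4 lost their calls. The difference of RT112 R1 from its parental cells minus that of RT4 R1 from its own was called for PHLDA1 alone (-3.37 ± 0.67, adjusted p = 0.00644), 1 of 10 (3.14% of all genes in this direction). That call was lost in 8 of the 12 omissions of 1 array, namely without RT112 parental replicate 1, 2 or 3, RT112 R1 in drug replicate 1, RT4 parental replicate 1 or 3, or RT4 R1 in drug replicate 2 or 3 (adjusted p = 0.0122 to 0.0207).

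Untreated RT4 replicate 1 was low for all 10 genes and stood furthest off for DUSP5 (6.89, 8.96 and 8.89). Without it, DUSP5 (-1.23 ± 0.19, adjusted p = 0.00619) and SPRED2 (-1.24 ± 0.17, adjusted p = 0.00406) were also lower in RT4 R1 in drug than in parental RT4, which made 9 of 10. Leaving out parental replicate 3 left 4 called, and leaving out parental replicate 2 or any of the R1 arrays left 3. In drug all 10 genes were lower than out of drug in RT4 R1 (5.74% of all genes), by 0.56 (SPRY4) to 3.14 (DUSP6) on the log2 scale, with no overlap (33.8% of all genes did not overlap). This count was 6 without R1 in drug replicate 3 and 7 to 9 without any other single array. Out of drug, none was called against parental RT4 (0.966% of all genes either way). At an unadjusted p under 0.05 limma gave 4 of 10 (19.7% of all genes). The methods' t-test, adjusted, gave none of the 10 and 2 of all genes. SPRY4 read 5.25, 5.49 and 5.14 in RT4 R1 out of drug, against 6.20, 6.99 and 7.20 in parental RT4 (-1.50 ± 0.26, adjusted p = 0.0272), and was called without parental replicate 1 (-1.80 ± 0.13, adjusted p = 0.00308).

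Before any drug, 8 of the 10 genes were not called different between RT112 and RT4. SPRY2 was higher in RT112 than in RT4 (0.60 ± 0.11, adjusted p = 0.00526; 8.68% of all genes were called higher) and SPRED1 was lower in RT112 (-0.80 ± 0.15, adjusted p = 0.00594; 10.1% of all genes). ETV4 read 8.79, 9.21 and 9.78 in RT112, against 7.07, 8.14 and 7.82 in RT4 (1.58 ± 0.33, adjusted p = 0.0113). Neither call held without any 1 RT112 array or without RT4 replicate 2 or 3, and without RT4 replicate 1 SPRY2, SPRED1 and SPRY4 were called.

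The levels of the 10 genes were correlated across arrays as a description, since arrays of a condition are not independent points. Over the 24 RT112 arrays, Pearson's r between pairs of the 10 ranged over 0.48 to 0.98 with a median of 0.88 (45 pairs), highest for DUSP6 with SPRED2 and lowest for DUSP5 with SPRY2. Over the 9 RT4 arrays the range was 0.21 to 0.98 and the median 0.88. DUSP5 followed the mean z-score of the 10, which includes it, least closely in RT112 (r = 0.70). Among genes outside the 10, those most like that mean over the RT112 arrays were MYEOV (r = 0.96, and 0.15 over the RT4 arrays), IL9R (0.96 and 0.94), SHC1 (0.96 and 0.78), TLR4 (0.95 and 0.94) and SH3TC2 (0.95 and 0.60). MYEOV averaged 5.26 at 24 h, against 9.81 in untreated RT112.

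Other genes known to be induced by ERK were followed as a list. Of 23 measured at 24 h, 11 were lower and 1 higher (median -0.48), when 13.1% of all genes were called lower and 11.4% higher. CCND1, encoding cyclin D1, averaged 8.72 at 24 h, against 12.70 untreated (-3.98 ± 0.17), and MYC averaged 7.50 at 24 h, against 11.42 untreated (-3.92 ± 0.31). The receptor gene EPHA2 was also lower at 24 h (-2.73 ± 0.14), in R1 in drug (-2.51 ± 0.11) and in R2 in drug (-2.45 ± 0.12). In R1 in drug 6 of 23 were lower and 1 higher (6.52% and 5.19% of all genes), and in R2 in drug 9 were lower and 2 higher (8.91% and 9.08%). JUNB, a component of AP-1, was higher in R1 in drug (2.11 ± 0.21) and in R2 in drug (2.01 ± 0.16) than in parental cells. PLAUR, the urokinase receptor gene, was lower in R1 in drug (-1.47 ± 0.22), and EMP1, a membrane protein gene, in R2 in drug (-3.18 ± 0.09). In RT4 R1 in drug MYC (-2.06 ± 0.33) and CCND1 (-0.82 ± 0.14) were the 2 of 23 called lower (3.33% of all genes). In R3 in drug none of the 23 was called, with 1.05% of all genes lower and 0.899% higher.

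Other feedback inhibitors of receptor and MAP kinase signalling were both lower and higher. At 24 h 2 of 14 were lower and 1 higher (13.1% and 11.4% of all genes). In R1 in drug 1 was lower and 2 higher (6.52% and 5.19% of all genes). In R2 in drug 4 were lower and 2 higher (8.91% and 9.08%), and in RT4 R1 in drug 2 were higher (2.53% of all genes). DUSP10, a phosphatase of the p38 and JNK kinases, averaged 9.61 at 24 h, 10.92 in R1 in drug and 10.32 in R2 in drug, against 7.07 in parental cells (2.54 ± 0.14, 3.85 ± 0.19 and 3.25 ± 0.12), and in RT4 R1 in drug it was higher by 1.59 ± 0.24. DUSP16, another phosphatase of those kinases, was higher in RT4 R1 in drug (1.98 ± 0.11). ERRFI1, an inhibitor of EGFR-family kinases, was lower at 24 h (-3.09 ± 0.19) and in R2 in drug (-1.65 ± 0.17). NF1, which inactivates RAS, was lower at 24 h (-0.71 ± 0.11), in R1 (-1.03 ± 0.13) and in R2 in drug (-1.04 ± 0.13). SPRY3 was higher in R1 in drug (0.69 ± 0.08) at a low signal of 5.51, against 4.81 in parental cells.

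Of 24 other ETS factors, 6 were higher and none lower at 24 h (11.4% and 13.1% of all genes). Among the 6 were ETS1 (1.67 ± 0.13) and the epithelial factors ELF3 (1.5 ± 0.15) and EHF (1.36 ± 0.18). In R1 in drug 1 was higher and 2 lower (5.19% and 6.52% of all genes), and in R2 in drug 2 were higher and 4 lower (9.08% and 8.91%). ELF5, another epithelial factor, averaged 5.51 in R1 and 5.34 in R2 in drug, against 10.51 in parental cells (-5.00 ± 0.46 and -5.17 ± 0.39). EHF was lower in R1 (-3.50 ± 0.60, adjusted p = 0.00976) and in R2 in drug (-2.28 ± 0.15), and ELF2 was higher in R1 (0.77 ± 0.11) and in R2 in drug (0.86 ± 0.12).

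Of 14 measured genes of the cascade itself, 5 were lower and 3 higher at 24 h (13.1% and 11.4% of all genes). In R1 in drug 1 was lower and 4 higher (6.52% and 5.19% of all genes). In R2 in drug 2 were lower and 3 higher (8.91% and 9.08%), and in RT4 R1 in drug 2 were lower (3.33%). The adaptor gene SHC1 was lower at 24 h (-1.58 ± 0.15), in R1 (-1.39 ± 0.11), in R2 (-1.45 ± 0.12) and in RT4 R1 in drug (-0.93 ± 0.15). GAB1, a docking protein, averaged 10.20 in R1 and 9.54 in R2 in drug, against 7.20 in parental cells (3.01 ± 0.25 and 2.35 ± 0.17). The exchange factors SOS2 at 24 h (1.56 ± 0.15) and SOS1 in R2 in drug (1.18 ± 0.09), and the scaffold KSR1 in R1 in drug (1.71 ± 0.20), were higher. PTPN11, the SHP2 phosphatase gene, was lower at 24 h (-1.05 ± 0.10), and the kinase gene RPS6KA1 was lower in RT4 R1 in drug (-0.68 ± 0.09). Of the 3 genes of the CIC repressor list, ATXN1, a partner of CIC, was higher at 24 h (0.53 ± 0.09), in R1 (1.16 ± 0.11), in R2 (1.03 ± 0.11) and in RT4 R1 in drug (0.75 ± 0.09). In R3 in drug no gene of these lists was called (1.05% of all genes were lower and 0.899% higher). FGFR3, the drug target, averaged 10.86 at 24 h, 7.51 in R1, 7.38 in R2 and 7.41 in R3 in drug, against 10.30 in untreated RT112. Out of drug FGFR3 averaged 8.90 in R1, 8.36 in R2 and 8.74 in R3. RT4 R1 averaged 9.78 in drug and 9.07 out of drug, against 9.17 in untreated RT4.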

How the data were processed

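The data are 33 Affymetrix Human Transcriptome Array 2.0 arrays in 11 conditions of 3, used as grouped by the labels. The authors deposited log2 signals for 70523 probe sets, and the submitters' processing notes name Affymetrix Expression Console and RMA (background correction, quantile normalization between arrays, 1 summary per probe set), without versions. Values run to 19.88, and 1.09% exceed 16, the log2 of a 16-bit range. The sources used here do not say why, so folds are on the deposited scale. Quantile normalization holds array distributions equal and can hide a shift of all genes.

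Probe sets with 1 symbol (23781) were kept and the brightest of each symbol taken, giving 22465 genes. Probe sets with several symbols (1543) were left out. No test of signal against background was made, so where one group lies close to its array medians the true change may be larger. The number of arrays limits the precision. Pairs of conditions (19) and 3 differences between effects were tested with limma 3.58.1 in R 4.3.3 (linear model, empirical Bayes, Benjamini-Hochberg over all genes, threshold 0.01), using the arrays compared only; the script was checked on simulated data. Errors after ± are SE unless stated, and folds are tested over reference or, for falls, the inverse.

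The 10 genes and all lists were chosen with earlier results of these data known. Genes named from the other lists are up to 3 per list and comparison with the largest called difference, at 24 h and in each derivative in drug against parental cells; the 5 most alike genes follow Pearson's r over 24 RT112 arrays. For RT112 R3 out of drug against parental cells, deviations of equally numbered arrays from their group means correlated at 0.38, 0.28 and 0.11, so the paired value is given there; the labels tie the numbers to no shared day or culture. Promoters came from a RefSeq table (GRCh38.p14). Alternatives are listed in the closing section.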

Additional observations from a re-analysis of the deposited data

Results flagged for a closer look

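PHLDA1 differed between groups in its response in each of the 3 tests of a difference between effects. The drug effect (in minus out of drug) in RT112 R1 minus that in RT112 R3 was -3.87, the drug effect in R2 minus that in R3 was -4.85, and the difference from parental cells in RT112 R1 minus that in RT4 R1 was -3.37, all on the log2 scale. The PHLDA1 arrays of RT112 R3 in drug spread from 10.97 to 12.44, and those of RT4 R1 in drug from 9.77 to 11.21.

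SPRED1 (-1.77, R1 minus R3) and DUSP4 (-1.29, R2 minus R3) differed in their drug effects as well. RT112 R3 in drug replicate 3 was the lowest of its group for 9 of the 10 genes, and without it the number called was 4 for R1 minus R3 and 5 for R2 minus R3. Over all omissions of 1 array the numbers called ranged over 0 to 4 and 1 to 5. With the replicate block, limma called neither SPRED1 for R1 minus R3 (adjusted p = 0.0162) nor DUSP4 for R2 minus R3 (adjusted p = 0.0132).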

How the results depend on the processing

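No gene changed direction across the threshold in any of the 2198 values from other settings or the 1500 from leaving out 1 array; 125 and 218 of these lost their call and 102 and 27 gained one. The array counts limit what can be called, and changes of genes near the array medians may be larger than given. The trended and robust prior and the use of every probe set changed no call.

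Equal replicate numbers correlated between -0.44 and 0.38 (deviations from group means) and were all over 0.1 in 1 of 19 comparisons, so the numbers do not pair the samples elsewhere. In 3 comparisons (R2 and R3 out of drug against parental cells, RT4 R1 in against out of drug) each array of the first condition correlated best with its own number, a hint from the data and not the design. With the replicate block, the number of the 10 genes called was 0 for R3 in drug (1 without the block), 1 for R2 out of drug (3 without it, SPRY2 and ETV5 being lost) and 0 for R3 out of drug (1) against parental cells, 3 for R1 in against out of drug (7), 0 for R1 against R3 in drug (3), 0 for R2 against R3 in drug (5), 1 for RT112 against RT4 (2), and 1, 1 and 2 for the drug effects of R1 and of R2 against R3 and for RT112 R1 against RT4 R1 (2, 2 and 1).

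With 1 fit over all arrays of the line, 4 were called for R3 in drug, 2 for R1 out of drug and 2 for RT4 R1 out of drug against parental cells, 7 for R1 and 8 for R2 against R3 in drug, and 6 for RT4 R1 in against out of drug. With 1 fit over all 33 arrays, 5 were called for RT112 against RT4, 4 and 4 for the drug effects of R1 and R2 against R3, and 3 for RT112 R1 against RT4 R1. Centring on array medians gave 0 for R3 in drug against parental cells, 1 for R1 in drug against 24 h, 3 for R2 against R3 in drug and 1 for RT112 against RT4. The filter at the 30th percentile gave 1 for R1 in drug against 24 h and 2 for RT112 R1 against RT4 R1, and quantile normalization again gave 1 and 4. A log2 difference of at least 1 left 0 for R2 out of drug, for R3 out of drug and for RT112 against RT4, by construction. For these settings and for the replicate block, the share of all genes called was not counted. Except for this minimum, a rise or fall in a count cannot be told apart from a change in calls over all genes.

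The methods' t-test after Benjamini-Hochberg called 1 of the 10 for RT4 R1 in against out of drug (168 of all genes). Against parental cells it called 0 for R3 in drug (3 of all genes) and RT4 R1 in drug (90). It also called 0 for R2 (64) and R3 out of drug (1) against parental cells. In against out of drug it called 0 for R1 (14 of all genes) and R2 (0). It called 0 for R3 in drug against 24 h (6), and for R1 (15) and R2 (1) against R3 in drug. Where few or none of the 22465 genes passed, a count of 0 does not set the 10 apart from other genes. The t-test also called 0 for RT112 against RT4 (1549 of all genes) and for the 3 differences between effects (106, 10 and 1126). At 0.05 unadjusted it gave 5 for R3 in drug, 7, 6 and 4 for R1, R2 and R3 out of drug and 2 for RT4 R1 out of drug against parental cells, 2 for R3 in against out of drug, 1, 2 and 10 for R1, R2 and R3 in drug against 24 h, 7 and 10 for R1 and R2 against R3 in drug, 4 for RT112 against RT4, and 5, 7 and 4 for the differences between effects. The share of all genes at this t-test threshold was not counted. By limma at 0.05 unadjusted the shares of all genes, in the same order, were 27.7%, then 22.6%, 33.5% and 28.3%, and 19.7%. They were 7.87% for R3 in against out of drug, and 31.5%, 33.2% and 36.2% against 24 h. Against R3 in drug they were 33.0% and 28.9%, between the lines 39.0%, and for the differences between effects 19.7%, 21.1% and 28.4%. Except for the log2 minimum, why the counts of the 10 genes moved was not tested.

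Leaving out 1 array gave ranges of 10 to 10 at 24 h, 6 to 8 for R1, 10 to 10 for R2 and 0 to 1 for R3 in drug, and 0 to 0, 0 to 1 and 0 to 2 for R1, R2 and R3 out of drug, against parental cells. In against out of drug the ranges were 2 to 7 for R1, 2 to 8 for R2 and 0 to 0 for R3, and against 24 h 0 to 2, 0 to 0 and 0 to 9. They were 0 to 4 for R1 and 0 to 8 for R2 against R3 in drug, 3 to 9 for RT4 R1 in drug, 0 to 1 for RT4 R1 out of drug, 6 to 9 for RT4 R1 in against out of drug, 0 to 3 for RT112 against RT4, and 0 to 4, 1 to 5 and 0 to 2 for the differences between effects. The arrays concerned are named beside each result. The share of all genes called without each array was not counted.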
